A study of Mus musculus with 2 samples.

Results

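The BMP and TGF-beta pathway is described here by 53 genes, listed by symbol, among the 42462 named genes of the tables (69691 features in all). Each of the 53 was found by its gene identifier, without the version, in both gene tables. The list holds 16 ligands, the protease gene Bmp1, 10 receptors, 8 Smads, 10 antagonists and modulators, 2 latency proteins, the 4 Id genes and 2 ubiquitin ligases. RNA was measured by total RNA-seq in the facial prominence of B6NCrl mouse embryos at embryonic day 10.5, for which the labels name no treatment, no altered allele and no control tissue. The series has 1 group of 2 pools, with tissue of 69 embryos in replicate 1 and of 51 in replicate 2. Male and female embryos were pooled in each, and both pools carry the same donor label. The input to each library was 10 ng of RNA, selected to be longer than 200 nt.

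BMPs, activins, Nodal and the TGF-betas are secreted dimers that bind a pair of type I and type II serine/threonine kinase receptors. The type I receptor then phosphorylates a receptor Smad: Smad1, Smad5 and Smad9 downstream of BMP-type receptors, Smad2 and Smad3 downstream of activin and TGF-beta receptors. Receptor Smads enter the nucleus with Smad4, while Smad6 and Smad7 inhibit the pathway, and the Id genes are known BMP targets. In the embryonic face, BMPs act in ectoderm and in neural crest mesenchyme during outgrowth of the prominences, and TGF-beta signalling is known for its role in the palate.

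Levels are given in TPM (a level per transcript length, scaled to the same total in each library), with replicate 1 before replicate 2. Named genes received 39956861 and 39428787 expected counts, of which the 53 genes held 114013 (0.285%) and 110834 (0.281%). The pools differed beyond sampling noise and were counted as 2 samples. The chi-square per degree of freedom was 8.41 over 18934 named genes with at least 10 counts, scaled by total counts. It was 13.4 over the 53 genes, scaled by TMM and without a filter. The statistic also rises with the counts of a gene, so these values were not compared. All 8 listed markers of facial mesenchyme and all 6 of surface ectoderm were detected. Markers of endothelium, blood and neurons were detected in full as well, so a level describes a mixture of cell types. In such bulk tissue, fewer cells of a type and less RNA per cell cannot be told apart. As the pools form 1 group, no contrast exists and no p-value is given.

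A gene was called detected at 1 TPM or more in both pools. This held for 43 of the 53 genes, beside 58.2% of the 21474 named protein coding genes. The median level of the 53 was 8.26 TPM, against 3.56 TPM for all protein coding genes and 20.1 TPM for the detected ones. Above that second median lay 15 of the 53: all 4 Id genes, 4 Smads, 3 receptors, 3 antagonists and modulators, and Bmp1. By definition it splits evenly the 12494 detected genes among the 21474 protein coding genes. The count of 15 was therefore not read as particular to the list. Levels ran from 0.0850 TPM (Nodal) to 506 TPM (Id3), as the plot of all 53 genes shows. The 4 Id genes held 54.4% of the summed TPM of the list, antagonists and modulators 16.1%, receptors 12.9%, Smads 8.55% and the 16 ligands 4.84%.

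**Figure D1:**
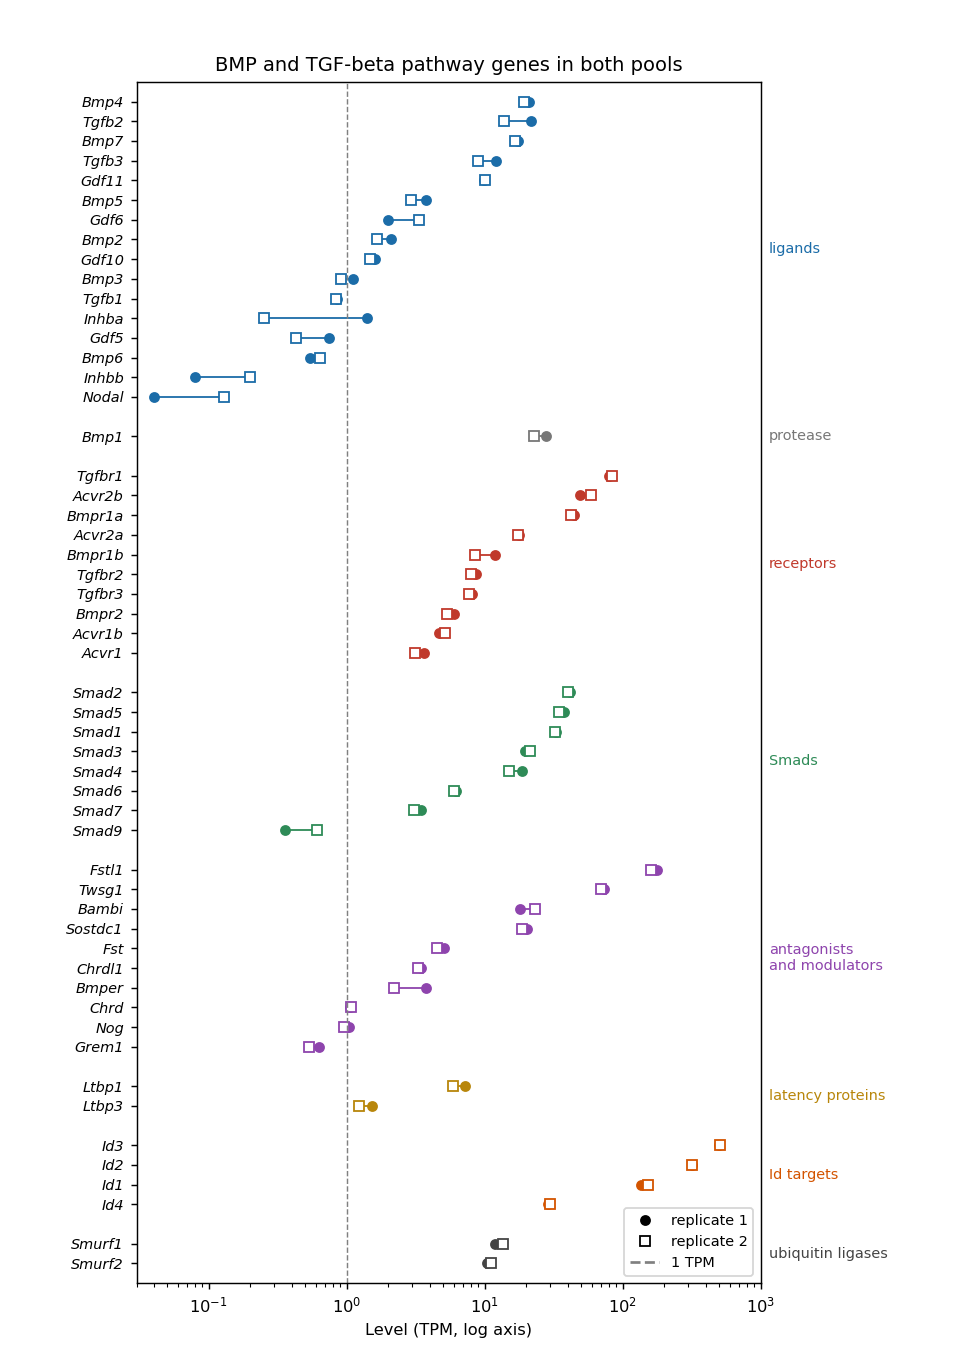
Level of each of the 53 genes in TPM on a log axis, filled circles for replicate 1 and open squares for replicate 2, grouped by class, with the dashed line at 1 TPM. The Id genes sit at the right end at up to 511 TPM, all 10 receptors lie right of the line, and 7 of 16 ligands do not reach it in both pools.

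Upstream sequence is shown for 1 ligand, 1 receptor, 1 Smad and 1 Id gene, with levels from 0.485 to 82.2 TPM, and for no antagonist or modulator. They are the ligand of highest mean level (Bmp4), the highest receptor (Tgfbr1), the Smad that was not detected (Smad9) and the lowest Id gene (Id4). Each run holds the 250 bases before the RefSeq start on GRCm38.p6, 5′ to 3′ on the strand of the gene, and overlaps no annotated exon. Capitals mark GGCGCC, a GC-rich run bound by BMP-activated Smads, which reads the same on both strands. Bmp4 lies on the minus strand (chr14:46390670-46390919), and the other windows lie on the plus strand: Tgfbr1 (chr4:47352972-47353221), Smad9 (chr3:54755332-54755581) and Id4 (chr13:48260866-48261115).
Bmp4: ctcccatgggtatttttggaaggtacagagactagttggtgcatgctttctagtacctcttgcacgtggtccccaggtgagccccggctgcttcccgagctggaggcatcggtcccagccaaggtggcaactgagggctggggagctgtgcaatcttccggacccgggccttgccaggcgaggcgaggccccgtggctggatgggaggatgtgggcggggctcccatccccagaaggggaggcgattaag
Tgfbr1: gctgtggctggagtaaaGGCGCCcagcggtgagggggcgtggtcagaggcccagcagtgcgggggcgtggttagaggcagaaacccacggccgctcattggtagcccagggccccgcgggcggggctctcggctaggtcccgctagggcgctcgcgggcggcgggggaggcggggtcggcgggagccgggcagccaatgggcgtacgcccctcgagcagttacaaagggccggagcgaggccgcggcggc
Smad9: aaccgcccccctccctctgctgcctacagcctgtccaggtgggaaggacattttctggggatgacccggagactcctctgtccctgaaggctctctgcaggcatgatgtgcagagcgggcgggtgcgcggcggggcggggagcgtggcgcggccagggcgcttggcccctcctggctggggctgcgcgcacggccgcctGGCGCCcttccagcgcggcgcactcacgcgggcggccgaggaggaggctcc
Id4: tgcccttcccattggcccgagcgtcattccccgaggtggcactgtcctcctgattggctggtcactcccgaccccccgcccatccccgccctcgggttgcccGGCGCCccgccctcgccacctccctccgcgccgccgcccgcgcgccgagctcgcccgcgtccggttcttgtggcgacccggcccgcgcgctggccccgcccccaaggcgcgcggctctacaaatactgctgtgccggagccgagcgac
GGCGCC began 233 bases before the start in Tgfbr1, 51 before it in Smad9 and 148 before it in Id4, and it was not in the Bmp4 window. RefSeq windows were matched for 36 of the 53 genes, 42 windows in all. GGCGCC was in 10 (23.8%) of them and in 9.59% of all 32851 windows of that length. The 10 genes with it (Bmpr1a, Bmpr2, Chrd, Grem1, Id2, Id4, Smad5, Smad9, Smurf2 and Tgfbr1) ran from 0.485 to 319 TPM, and 8 of them were detected. The 26 genes whose windows lacked it ran from 0.0850 to 506 TPM, with 21 detected, so the ranges overlap. CAGAC on either strand, a short run that Smad3 and Smad4 bind, was in 45.2% of the windows and in 42.2% of all windows. It was in none of the 4 windows printed. A second window of Tgfbr1 (chr4:47385966-47386215), not printed, holds CAGAC and lacks GGCGCC.

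Bmp4 and Bmp7 were the most abundant BMP ligand genes, and Tgfb2 stood beside them. Bmp4 (ENSMUSG00000021835, chromosome 14, 46383520 to 46390669), a ligand of facial ectoderm and mesenchyme, was at 21.0 and 19.2 TPM. Tgfb2 (ENSMUSG00000039239, chromosome 1, 186622792 to 186705989), 1 of the 3 TGF-beta genes, was at 21.6 and 13.9 TPM. Bmp7 (ENSMUSG00000008999, chromosome 2, 172868012 to 172940321) was at 17.6 and 16.5 TPM. The values of Tgfb2 in the 2 pools enclose those of Bmp7 and of Bmp4, so these pools do not place it in the order. These levels are of whole genes. Coding transcripts held 91.6% and 91.9% of Bmp4, 78.5% and 81.0% of Bmp7 and only 57.5% and 55.8% of Tgfb2. Tgfb3, known for its part in palate fusion, followed at 12.1 and 8.94 TPM. Gdf11, a ligand of activin-type receptors that acts in axial patterning, was at 9.93 and 10.0 TPM, between the values of Tgfb3.

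The other ligands were low. Bmp5 was at 3.77 and 2.91 TPM, and Gdf6, a joint and skull growth factor, at 2.01 and 3.32 TPM. Bmp2 was at 2.10 and 1.66 TPM and Gdf10 at 1.61 and 1.47 TPM. These 4 were the lowest of the 9 ligands detected. The 7 not detected were Bmp3 (1.11 and 0.910 TPM), Tgfb1 (0.850 and 0.840), Inhba (1.40 and 0.250), Bmp6 (0.540 and 0.640), Gdf5 (0.750 and 0.430), Inhbb (0.0800 and 0.200) and Nodal (0.0400 and 0.130). Bmp3 and Inhba passed 1 TPM in replicate 1 but not in replicate 2. Nodal, the ligand of left-right and mesoderm patterning, rested on 2 and 7 counts.

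Pairs of related genes were compared on log2(TPM + 0.1), with 95% intervals from the spread between the pools of the 200 genes nearest in level, since 2 pools give no usable SD for a single gene. Among 35 pairs, 28 differed beyond that spread, 24 of them by at least 2-fold. Bmp4 exceeded Bmp2, which shares its subfamily, 10.2-fold (95% interval 5.85 to 17.9). Bmp7 exceeded Bmp5 5.01-fold (3.52 to 7.13) and Bmp6 24.9-fold (9.39 to 65.9), 3 genes of a second BMP subfamily. Bmp4 and Bmp7 were not separated, at 1.18-fold (0.983 to 1.41), though they were with posterior mean TPM or with the spread of the 50 nearest genes. Coding transcripts held 91.6% and 91.9% of Bmp4 but 78.5% and 81.0% of Bmp7. The 1.18-fold is of whole genes and does not give the fold of their coding RNA. Among the TGF-betas, Tgfb2 exceeded Tgfb3 1.66-fold (1.31 to 2.10) and Tgfb1, the family member prominent in immune and blood cells, 18.4-fold (7.57 to 44.8). These folds are of whole genes, noncoding transcripts included. Coding transcripts held 57.5% and 55.8% of Tgfb2 but all of Tgfb3. The 1.66-fold therefore does not place coding Tgfb2 RNA above that of Tgfb3. Gdf11 exceeded Gdf10 6.15-fold (4.00 to 9.47). Gdf6 exceeded Gdf5 4.00-fold (1.51 to 10.6), but the interval crossed 0 on the log scale with replicate 1 alone (log2 difference of -1.31, -3.30 to 0.67).

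Bmp1 is named for its discovery with the BMPs but encodes a metalloprotease that cleaves procollagen and Chordin. Its level was 28.1 and 22.9 TPM, above every ligand of the list in both pools.

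All 10 receptor genes were detected, and 1 or a few led each receptor type. The type I TGF-beta receptor gene Tgfbr1 (ENSMUSG00000007613, chromosome 4, 47353222 to 47414931) was highest at 80.0 and 84.4 TPM. Acvr2b, a type II receptor for activins and BMPs, was at 48.9 and 58.6 TPM. Bmpr1a, the broadly expressed type I BMP receptor, was at 44.5 and 42.1 TPM. No other receptor reached the median of detected protein coding genes: Acvr2a was at 17.8 and 17.6 TPM and Bmpr1b, the type I receptor of cartilage condensations, at 11.9 and 8.54 TPM. The type II receptor Tgfbr2 was at 8.61 and 7.91 TPM and the coreceptor Tgfbr3, or betaglycan, at 8.14 and 7.75 TPM. The type II receptor Bmpr2 was at 6.02 and 5.33 TPM. The activin type I receptors Acvr1b (4.64 and 5.20 TPM) and Acvr1 (3.61 and 3.13 TPM), the latter signalling to the BMP Smads, were the lowest.

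The 2 chains of the TGF-beta receptor were thus at unequal RNA levels. Tgfbr1 exceeded Tgfbr2 9.85-fold (7.95 to 12.2) and the other Smad2 and Smad3 type I receptor, Acvr1b, 16.4-fold (12.6 to 21.5). Tgfbr2 and its coreceptor Tgfbr3 were not separated, at 1.04-fold (0.770 to 1.40). Among BMP type I receptors, Bmpr1a exceeded Bmpr1b 4.27-fold (3.53 to 5.15) and Acvr1 12.5-fold (8.96 to 17.5). Among type II receptors, Acvr2b exceeded Acvr2a 3.01-fold (2.55 to 3.55), and Acvr2a exceeded Bmpr2 3.09-fold (2.37 to 4.03). Bmpr1a exceeded its partner Bmpr2 7.52-fold (5.93 to 9.55). These ratios depend on the lengths used: Acvr2b had 2087 and 2488 counts over an effective length of 1610 bases in replicate 1, while Bmpr2 had 1799 and 1688 counts over 11268 bases.

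**Figure D2:**
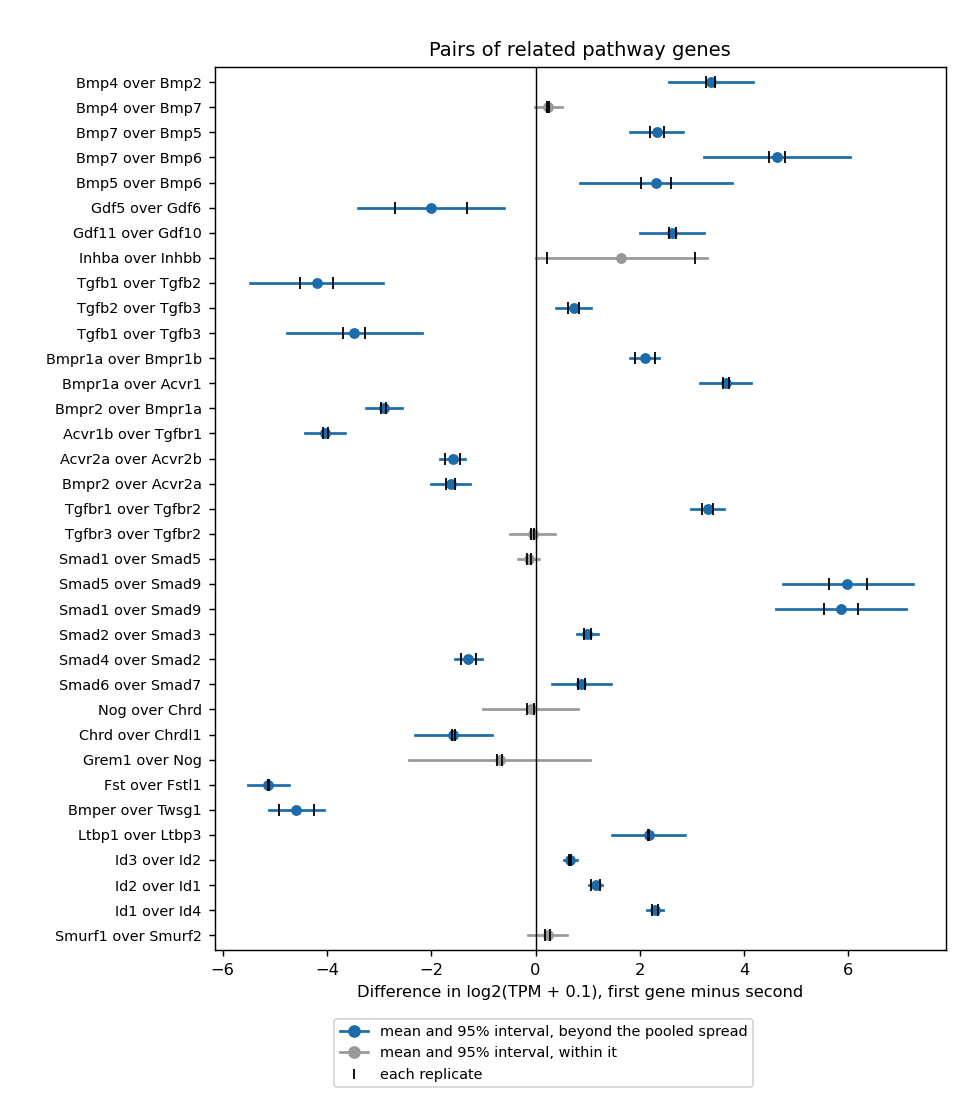
Difference in log2(TPM + 0.1) between the genes of 35 related pairs, first gene minus second, with points for the mean of both pools, bars for the 95% interval from the pooled spread and ticks for each pool. The 28 pairs in blue differ beyond that spread, and the 7 in grey, among them Bmp4 with Bmp7 and Smad1 with Smad5, do not.

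The receptor Smads of both branches were expressed, except Smad9. Smad2 was at 41.3 and 40.5 TPM, Smad5 at 37.4 and 34.8, Smad1 at 33.2 and 32.6 and Smad3 at 19.7 and 21.3. The common partner Smad4 was at 18.6 and 15.0 TPM. Neighbours in the order of the 8 Smads had values that did not overlap between the pools. Smad9 (ENSMUSG00000027796, chromosome 3, 54755582 to 54801257), the third BMP receptor Smad, was at 0.360 and 0.610 TPM, from 50 and 85 counts, and was the only Smad not detected. Smad5 exceeded it 63.2-fold (26.7 to 150) and Smad1 57.7-fold (24.3 to 137), while Smad1 and Smad5 were not separated, at 1.10-fold (0.954 to 1.26). Smad2 exceeded Smad3 1.99-fold (1.72 to 2.30) and Smad4 2.44-fold (2.03 to 2.93). The inhibitory Smads were low, with Smad6, which acts mainly on BMP signals, at 6.19 and 6.04 TPM and Smad7, which acts on both branches, at 3.47 and 3.10. Smad6 exceeded Smad7 1.84-fold (1.24 to 2.72).

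Summed levels were set side by side for the branches of the pathway. BMP-type ligands (Bmp2, Bmp4, Bmp5, Bmp6, Bmp7, Gdf5 and Gdf6) summed to 47.7 and 44.6 TPM, the 3 TGF-betas to 34.6 and 23.6 TPM, and Inhba, Inhbb and Nodal to 1.52 and 0.580 TPM. The BMP sum exceeded the TGF-beta sum 1.38-fold in replicate 1 and 1.89-fold in replicate 2. For the sets as drawn, the type I receptors had the opposite order, with Tgfbr1 and Acvr1b together 1.41-fold and 1.67-fold above the 3 BMP type I receptors. The ligand and receptor sets do not match: Acvr1b is an activin receptor, while the TGF-beta ligand sum holds no activin. Bmp3, Gdf10 and Gdf11 are in no ligand sum, and Gdf11, a ligand of activin-type receptors, was at 9.93 and 10.0 TPM. The ligand folds thus depend on which genes are summed. The receptor Smads were nearly balanced: Smad1, Smad5 and Smad9 summed to 70.9 and 68.0 TPM, which was 1.16-fold and 1.10-fold the sum of Smad2 and Smad3 (61.0 and 61.7 TPM). The BMP receptor Smads stood 7.34-fold and 7.44-fold above the sum of Smad6 and Smad7. These RNA sums count all transcripts of each gene, noncoding ones included, and say nothing of protein or of activity.

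**Figure D3:**
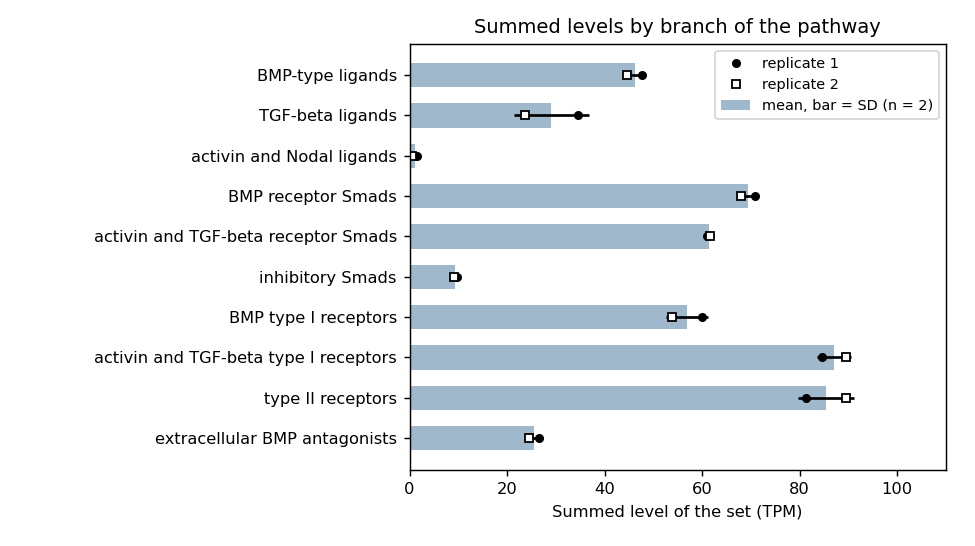
Summed TPM of 10 sets of pathway genes, bars from 0 for the mean of both pools, with error bars for the SD (n = 2), filled circles for replicate 1 and open squares for replicate 2. In TPM the pools lie farthest apart for the TGF-beta ligands (34.6 and 23.6), the activin and Nodal ligands differ more as a ratio (1.52 and 0.580), and the receptor Smads of the 2 branches lie between 61.0 and 70.9 TPM.

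The antagonists and modulators ranged from Fstl1 down to Grem1. Fstl1 (ENSMUSG00000022816, chromosome 16, 37776873 to 37836514), which encodes a secreted follistatin-like protein, was at 179 and 162 TPM, the highest gene of the list after Id3 and Id2. Twsg1, the secreted BMP and Chordin binding protein Twisted gastrulation, was at 73.2 and 70.0 TPM. Bambi, a pseudoreceptor without a kinase domain that is itself induced by BMP, was at 18.2 and 23.3 TPM, and Sostdc1, a BMP and Wnt antagonist of tooth and skin placodes, at 20.4 and 18.6 TPM. The values of Bambi enclosed those of Sostdc1. The activin antagonist Fst was at 5.06 and 4.51 TPM, Chrdl1 at 3.45 and 3.30 and the Chordin-like modulator Bmper at 3.76 and 2.21.

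The classical BMP antagonists were at or under the detection threshold. Chrd, the gene of Chordin, was at 1.06 and 1.07 TPM and so narrowly detected, Nog, the gene of Noggin, was at 1.04 and 0.950 TPM, and Grem1, the limb antagonist Gremlin, was at 0.630 and 0.530 TPM. They rested on 40 to 91 counts a library. Chrd and Nog were not separated (1.06-fold, 0.565 to 2.01), nor were Nog and Grem1 (1.61-fold, 0.484 to 5.37), though the latter pair was with posterior mean TPM. Chrdl1 exceeded Chrd 2.98-fold (1.78 to 4.99), Fstl1 exceeded Fst 34.9-fold (26.5 to 46.0), and Twsg1 exceeded Bmper 24.0-fold (16.5 to 34.9). A set of 5 secreted antagonists (Nog, Chrd, Chrdl1, Grem1 and Sostdc1) summed to 26.5 and 24.5 TPM, and Sostdc1 held 76.7% and 76.1% of that. BMP-type ligands, at 47.7 and 44.6 TPM, exceeded this sum 1.80-fold and 1.82-fold. That direction depends on which genes are summed: the set leaves out Twsg1, whose 73.2 and 70.0 TPM alone exceed the ligand sum in both pools.

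The latent TGF-beta binding proteins hold TGF-beta in the matrix. Ltbp1 was at 7.19 and 5.88 TPM and Ltbp3 at 1.54 and 1.22 TPM, so that Ltbp1 exceeded Ltbp3 4.49-fold (2.77 to 7.27). The ubiquitin ligases, which mark Smads and receptors for degradation, were at 12.0 and 13.5 TPM for Smurf1 and 10.5 and 11.2 TPM for Smurf2, not separated at 1.17-fold (0.904 to 1.52).

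The Id genes encode helix-loop-helix proteins without a DNA-binding region, which hold basic helix-loop-helix factors inactive. Id3 (ENSMUSG00000007872, chromosome 4, 136143497 to 136145755) was the highest gene of the list at 501 and 511 TPM, above 98.0% of detected protein coding genes. Id2 was at 321 and 318 TPM, Id1 at 136 and 152 and Id4 at 28.9 and 29.8. Each step of that order exceeded the pooled spread: Id3 over Id2 1.58-fold (1.46 to 1.72), Id2 over Id1 2.22-fold (2.03 to 2.43) and Id1 over Id4 4.89-fold (4.39 to 5.45). The 4 summed to 986 and 1012 TPM. For Id2 and Id3 the deposited TPM lay outside the interval that the authors give with it, which was so for no other gene of the list. Id genes answer to other signals too, and no part of their level was assigned to BMP.

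No gene of the list with enough reads differed 2-fold between the pools. After TMM scaling, 46 of the 53 genes had mean counts of 50 or more, and 0 of these were 2-fold apart in either direction. The share of all 14035 named genes with that depth was 0.556% for higher in replicate 2 and 0.670% for higher in replicate 1. Of the 46 genes, 17 had a log2 ratio of replicate 2 over replicate 1 above 0 and 29 below 0, with a median absolute value of 0.12 against 0.09 for all named genes. Ratios carry exact 95% intervals that cover counting error only. There is 1 library on each side, so no test was made.

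Among those 46 genes, the ratios farthest from 0 belonged to several classes. Smad9 was higher in replicate 2 (log2 ratio of 0.78, 0.28 to 1.34), as was Gdf6 (0.75, 0.48 to 1.03) and Bambi (0.39, 0.31 to 0.47). Bmper was higher in replicate 1 (-0.73, -0.99 to -0.49), as were Tgfb2 (-0.64, -0.75 to -0.53), Tgfb3 (-0.41, -0.55 to -0.27) and Bmpr1b (-0.34, -0.46 to -0.23). Both detected TGF-beta genes thus lay lower in replicate 2, with 1658 and 1036 counts for Tgfb2 and 1056 and 774 for Tgfb3. The 4 Id genes had ratios from 0.02 to 0.19. With no filter on counts, 3 genes were 2-fold apart, against 9.61% of all named genes: Inhba (54 and 10 counts, log2 ratio of -2.19, -3.53 to -1.41), Inhbb (9 and 22 counts, 1.16) and Nodal (2 and 7 counts, 1.19). Gdf5, with 44 and 25 counts, had a ratio of -0.74.

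Genes listed as markers of hindbrain, heart and neural tube also differed between the pools. The tissue that their RNA came from was not tested, and cells of the facial prominence itself may express some of them. The summed TPM of the 4 Hox genes listed for hindbrain was 14.2 and 36.5 (3 of 4 detected). That of 6 heart genes was 3.60 and 10.5 (0 of 6 detected) and that of 5 neural tube genes 189 and 253 (3 of 5 detected). No gene of these 3 lists was at 0. Within the lists the genes did not all move alike. Of the heart genes, Myh7, Tnnt2, Myh6 and Actn2 were higher in replicate 2, while Nkx2-5 (log2 ratio of -0.58) and Nppa (-0.45) were lower. Of the neural tube genes, Hes5 (0.83) and Pax6 (0.81) were higher, while Fabp7 (0.06) and Sox1 (0.10) were close to 0. The summed facial mesenchyme markers of replicate 2 were 0.958 times those of replicate 1, a sum led by Msx1 at 281 and 303 TPM. These mesenchyme markers did not move alike either. Lower in replicate 2 were Alx1 (-0.69), Tfap2b (-0.37), Pdgfra (-0.32) and Twist1 (-0.28). Twist2 (-0.05) and Prrx1 (0.03) were close to 0, and Prrx2 (0.12) and Msx1 (0.14) were slightly higher. All 3 macrophage markers were lower too, from a sum of 25.6 to 20.4 TPM, and the 6 surface ectoderm markers summed to 1.02 times their level of replicate 1. The part of these markers in the ratios of Gdf6, Smad9, Bambi, Bmper, Tgfb2, Tgfb3 and Inhba was not tested.

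**Figure D4:**
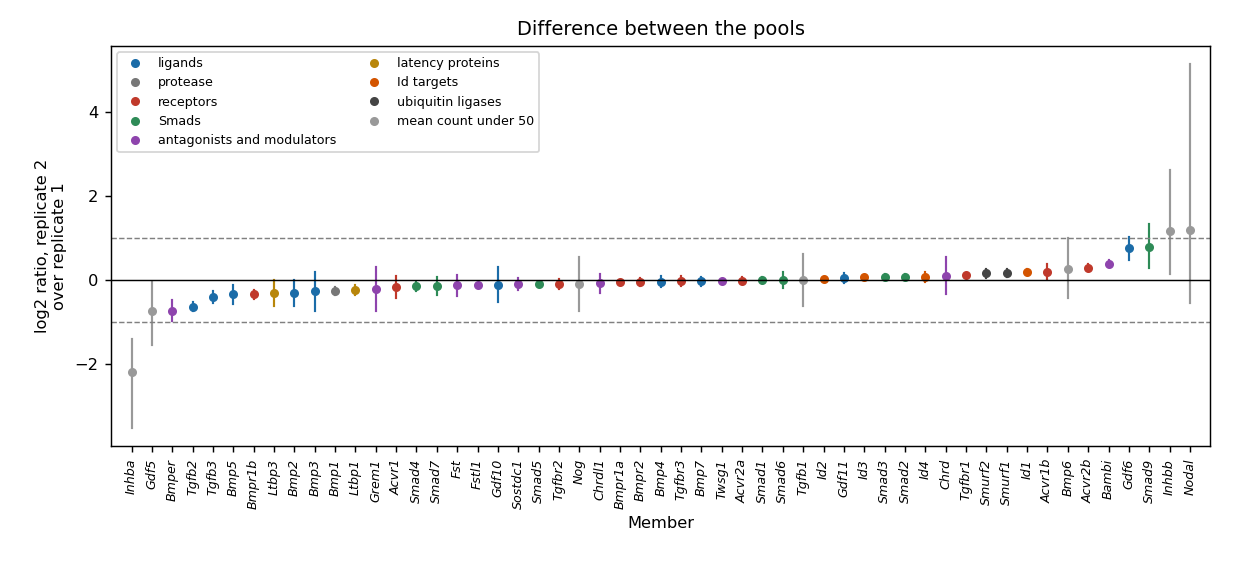
Log2 ratio of replicate 2 over replicate 1 for each of the 53 genes after TMM scaling, coloured by class, with exact 95% intervals for counting error and dashed lines at 2-fold. The 46 genes with mean counts of 50 or more lie between -0.73 (Bmper) and 0.78 (Smad9), and the points past the lines, Inhba, Inhbb and Nodal, are among the 7 grey ones below that count.

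Each gene's leading transcript, the one with the largest share, did not differ between the pools for any of the 28 detected genes with at least 2 annotated transcripts. Over all named genes the leading transcript was shared by the pools for 91.4% of 9593 detected genes. The other 15 detected genes have 1 transcript in the annotation. The leading transcript was annotated as protein coding in all 28 and held at least 90% of the gene in 12. No share over all named genes is given beside these counts, so they were not read as particular to the list. Only Tgfb2 had a leading transcript under 50%: Tgfb2-201 held 39.5% and 37.4%. The retained-intron transcripts Tgfb2-205 and Tgfb2-202 held 26.1% and 35.2%, and 14.4% and 7.91%. The retained-intron Bmp7-202 held 21.5% and 19.0% of Bmp7. Bmp4 was split between coding transcripts, with Bmp4-201 at 59.1% and 72.5% and Bmp4-202 at 32.5% and 19.4%. Acvr2b was split as well, with Acvr2b-202 at 59.9% and 58.1% and Acvr2b-201 at 40.1% and 41.9%. Of Fstl1, the coding transcript Fstl1-201 held 67.0% and 67.9%, and the noncoding Fstl1-202 held 20.1% and 19.9%. Transcript shares have no interval here and rest on how reads shared by transcripts were divided.

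**Figure D5:**
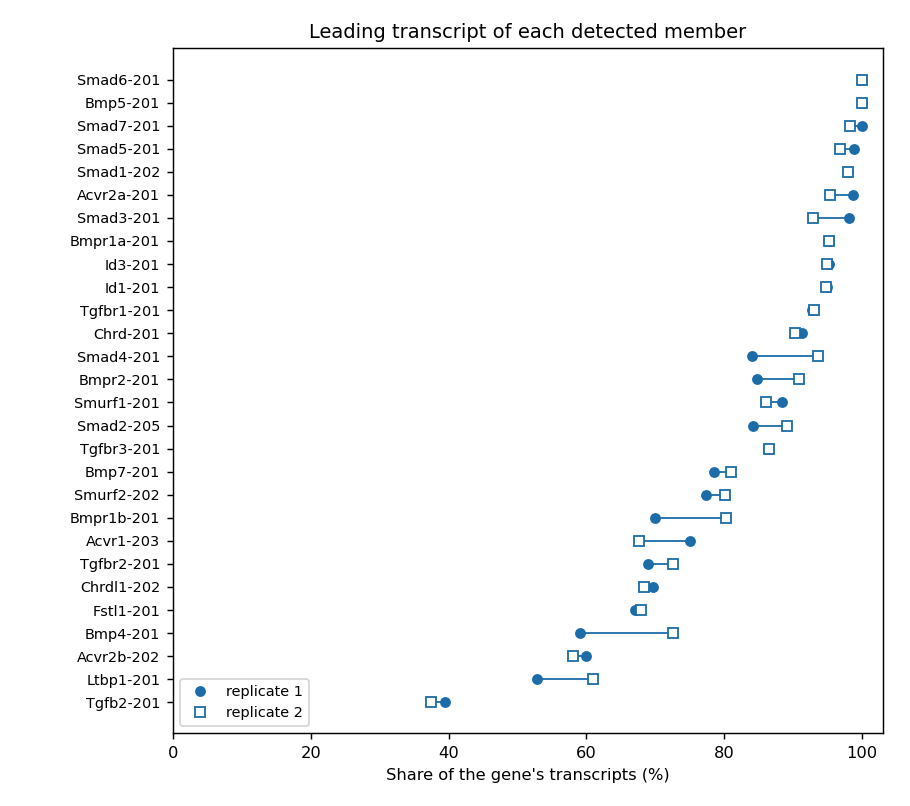
Share of the leading transcript within its gene, in percent, for the 28 detected genes with at least 2 annotated transcripts, filled circles for replicate 1 and open squares for replicate 2. Smad6-201 and Bmp5-201 lie at the right end, and Tgfb2-201 lies lowest at 39.5% and 37.4%.

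The tables hold genes that overlap 18 of the 53, on the opposite strand for 13, and whether counting used the strand is not given in the sources used here. For 6 of them the neighbour's counts were above 0.1 of the gene's own. Txndc5 at Bmp6 had 9433 and 10094 counts beside 33 and 39 for Bmp6. Orc4 at Acvr2a had 3614 and 3523 counts, and Ttll5 at Tgfb3 1219 and 1445. Thpo at Chrd had 24 and 11 counts and Gm15557 at Gdf5 had 5 and 3. Levels of such genes are uncertain to that extent.

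Of 61 other genes of the pathway, listed by role, 33 were detected, beside 58.2% of all named protein coding genes. The same share stands beside the counts by role. Other ligands were mostly not, with 2 of 16 detected: Mstn, the gene of myostatin, at 2.64 and 2.96 TPM and the inhibin subunit Inha at 2.58 and 1.88 TPM. Other receptors and coreceptors gave 4 of 7, led by the endothelial coreceptor Eng (21.5 and 19.8 TPM) and the BMP coreceptor Rgmb (15.5 and 14.9 TPM). Other antagonists gave 5 of 10, led by Nbl1 (68.2 and 43.2 TPM), whose product binds BMPs, and Kcp (17.8 and 15.4 TPM). Genes of latency, activation and Chordin cleavage gave 7 of 11, led by the integrin subunit Itgav (46.9 and 45.0 TPM) and the fibrillin Fbn2 (36.4 and 33.7 TPM). Intracellular regulators were nearly all detected, 12 of 13, led by the Smad corepressors Tgif2 (94.9 and 95.2 TPM) and Tgif1 (94.8 and 92.1 TPM). Of 4 other targets 3 were detected, led by Tgfbi (54.9 and 41.2 TPM) and Atoh8 (13.4 and 15.8 TPM). In both pools Nbl1 alone stood above the sum of Nog, Chrd, Chrdl1, Grem1 and Sostdc1.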

How the data were processed

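Per the file headers and accompanying notes, the authors mapped each replicate separately on mm10 with GENCODE M4. The aligner, the quantifier and their versions are not given in the sources used here. The authors deposited expected counts (not normalized), TPM scaled over all features of a file, spike-ins included, lower and upper bounds of TPM (a signal column here), transcript shares in percent, and lengths. Symbols, coordinates and transcript names came by identifier from GENCODE M21 on GRCm38, the same assembly. Promoter windows came from RefSeq, and no protein sequence was used here.

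Expected counts were rounded to whole numbers for the TMM factors (edgeR 4.0.16) and for the counting intervals. Log2 ratios used the unrounded counts, scaled with these factors, with a prior count of 2 per library. Pair intervals were 1.96 standard errors wide on each side, and a pair was said to differ when the interval left out 0 and both pools had the same sign. The scripts were tested on simulated data. The replicates are separate pools per the labels, and spreads measure these 2 libraries alone. No correction for multiple pairs was made. Alternatives were other thresholds, estimates, scalings, pseudocounts, filters and each pool alone.

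The 53 genes, the other lists and the rules were chosen with earlier results of these data known. All 53 genes are named, with values for those highest and lowest in their class, those in pairs and those 2-fold apart, and of other pathway genes the 2 highest of each role are named. Gdf1 had no match by symbol. The values of 1 overlapping gene are not reported here.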

Additional observations from a re-analysis of the deposited data

How the results depend on the processing

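The count of 43 detected genes became 48 at 0.5 TPM and 39 at 2 TPM, 44 with posterior mean TPM (Tgfb1 gained) and 45 with TPM rescaled over named genes (Bmp3 and Nog gained). It was 43 with replicate 2 alone and 46 with replicate 1 alone. At 2 TPM, 1 of the 2 latency proteins was left. Rescaling over named genes moved the median of Smads to 20.4 TPM, of antagonists and modulators to 4.47, of Id genes to 254, of ubiquitin ligases to 13.0 and of all 53 genes to 9.04. Over detected genes alone the medians were 9.98 TPM for ligands, 20.5 for Smads, 12.1 for antagonists and modulators and 12.8 for all, since the genes not detected are left out. Posterior mean TPM gave the Id genes a median of 227.

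The 28 separated pairs became 29 with a pseudocount of 1 TPM, 31 with posterior mean TPM, 30 with the spread of the 50 nearest genes, 27 with replicate 2 alone and 28 with replicate 1 alone. Bmp5 over Bmp6 was lost with replicate 2 alone (log2 difference of 2.02, -0.05 to 4.09), and Gdf5 over Gdf6 with replicate 1 alone. Bmp4 over Bmp7 was separated with posterior mean TPM (0.01 to 0.48) and with the spread of the 50 nearest genes (0.01 to 0.46), Grem1 over Nog with posterior mean TPM (-1.31 to -0.07), and Inhba over Inhbb under 4 alternatives, among them a pseudocount of 1 TPM (0.16 to 1.05). The cause was not tested. Genes 2-fold apart were 3 with no count filter and 0 under the other 5 alternatives of scaling, filter, prior count and estimate. The leading transcripts were the same under both alternatives. A count of genes 2-fold apart or of shared leading transcripts needs both pools, so leaving out a replicate gives no value for them. No paired analysis was possible because the series has 1 group. Depth limits the 7 genes with a mean count under 50 (Nodal, Inhbb, Inhba, Gdf5, Bmp6, Nog and Tgfb1), which rest on 2 to 54 counts.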
